A study of Homo sapiens with 12 samples.

Results

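The genes described here are 39 factors of ribosome biogenesis and RNA polymerase I transcription, listed by symbol, and all 39 were among the 34886 gene symbols of the deposited mRNA table. The list was drawn up with earlier results of these data known, so the counts of members that fell describe the list and are no independent support for its direction. Messenger RNA was sequenced in H446 cells (NCI-H446), a standard line derived from a human small cell lung tumour, with 3 libraries per group. One group received CAPE (caffeic acid phenethyl ester, known from honeybee propolis) at 40 µM for 8 h. The control group received an equal volume of the solvent dimethyl sulfoxide (DMSO), and no other agent or genetic change is named for either group. Whether the 3 libraries of a group are separate cultures is not in the labels. The p-values therefore set the difference between the groups against the spread among these libraries only, and that spread may be technical.

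Ribosomes are made in the nucleolus, where RNA polymerase I transcribes the long precursor of the ribosomal RNAs. Small nucleolar RNAs guide the chemical modification of this precursor as protein-RNA particles (snoRNPs), box C/D particles for methylation and box H/ACA particles for pseudouridine. The processome of the small subunit and a series of assembly factors of the large subunit then cut, fold and package the RNA with ribosomal proteins. These genes are strongly expressed in dividing cells, and many of them are known targets of the transcription factor MYC.

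The libraries held 17569997 to 20917508 estimated counts, and DMSO 3 stood apart from the other 5. Its scaling factor was 0.699 against 1.07 to 1.09, and it had 16207 genes detected against 17864 to 18587. For this reason the comparison was fitted with all 6 libraries and again without DMSO 3, and values are named by their fit. No 2 libraries held identical values. The chi-square per degree of freedom between the counts of 2 libraries was 4.997 for DMSO 1 and DMSO 2 and 3.22 for CAPE 1 and CAPE 3. It was 24.1 and 25.6 for CAPE 2 against CAPE 1 and CAPE 3, so CAPE 2 also lay apart from its replicates. For DMSO 3 it ran from 315 to 389. Genes encoded by mitochondrial DNA took 2.98%, 2.82% and 2.20% of counts in DMSO 1 to 3 and 3.41% to 3.45% in CAPE, and the part of this shift in the results was not tested. Of the markers of small cell lung cancer, NEUROD1 and INSM1 measured 0 in all DMSO libraries in TPM (a level scaled by transcript length and library). In CAPE they reached at most 0.0588 and 0.0569 TPM. Over the 6 libraries POU2F3 measured 0.0392 to 0.191 TPM, CHGA 0 to 0.369, SYP 0.365 to 0.547 and NCAM1 0 to 0.112. Of the markers given, only ENO2 was above these low levels, at 18.1 to 31.1 TPM in DMSO and 134 to 144 TPM in CAPE. The 4 fibroblast markers summed to 13.0 to 46.6 TPM in DMSO, with the minimum in DMSO 3, and to 46.9 to 55.7 TPM in CAPE. Of these COL1A1 measured 10.0, 8.29 and 2.95 TPM in DMSO and 17.7 to 19.5 TPM in CAPE, while DCN and LUM in CAPE overlapped DMSO 1 and DMSO 2. The 4 leukocyte markers summed to 23.9 to 26.0 TPM in DMSO and 28.6 to 34.3 TPM in CAPE, with CD3E at 0 in every library. Nearly all of this sum was CD68 (23.8 to 25.3 TPM in DMSO, 27.1 to 32.3 TPM in CAPE). The 4 epithelial markers summed to 1292 to 2552 TPM in DMSO and 1126 to 1185 TPM in CAPE, nearly all of it KRT8 and KRT18. KRT8 measured 826 to 1493 TPM in DMSO and 711 to 746 TPM in CAPE. KRT18 measured 454 to 1058 TPM in DMSO and 403 to 436 TPM in CAPE, and for both keratins the groups did not overlap. EPCAM went the other way, at 1.16 to 2.26 TPM in DMSO and 2.26 to 2.96 TPM in CAPE. CDH1 measured 0.0364 to 0.194 TPM over the 6 libraries. The 3 endothelial markers summed to 1.58 to 4.06 TPM in DMSO and 1.10 to 3.46 TPM in CAPE. The part of these marker shifts in the results was not tested.

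The 250 bases before the transcription start of some members are shown, as RefSeq gives them for GRCh38.p14, because MYC binds the E-box CACGTG (a palindrome, so both strands read the same). Of the 39 members 31 had a promoter in the RefSeq table, and 2 of these (6.45%) held the motif before a start, namely UTP20 and DDX21. Of all genes tested without DMSO 3, 10235 were found in the table, and 1138 of them (11.1%) held the motif before a start. Capitals mark the motif. For DDX21, which has 2 starts in the table, 30 bases around the motif are given. That motif lies before the downstream start only, and thus within the gene as counted from the upstream start. DDX10 and POLR1C are shown because the one fell in both fits and the other rose in the fit without DMSO 3; neither sequence has the motif. A match is a description of letters and no evidence of binding.
UTP20, chr12:101279855-101280104, plus strand: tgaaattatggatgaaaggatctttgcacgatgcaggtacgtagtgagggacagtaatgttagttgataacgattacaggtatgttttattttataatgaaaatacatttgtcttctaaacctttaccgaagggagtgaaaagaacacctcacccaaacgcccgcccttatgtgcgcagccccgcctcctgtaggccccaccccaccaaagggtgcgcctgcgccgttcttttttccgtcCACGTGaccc
DDX21, chr10:68956604-68956633, plus strand: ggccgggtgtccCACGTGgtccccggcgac
DDX10, chr11:108664819-108665068, plus strand: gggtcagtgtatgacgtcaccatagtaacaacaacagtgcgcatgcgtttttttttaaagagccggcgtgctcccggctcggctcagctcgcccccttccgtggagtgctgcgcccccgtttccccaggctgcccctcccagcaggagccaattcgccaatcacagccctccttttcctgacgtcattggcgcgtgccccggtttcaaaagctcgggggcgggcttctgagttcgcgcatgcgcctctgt
POLR1C, chr6:43516839-43517088, plus strand: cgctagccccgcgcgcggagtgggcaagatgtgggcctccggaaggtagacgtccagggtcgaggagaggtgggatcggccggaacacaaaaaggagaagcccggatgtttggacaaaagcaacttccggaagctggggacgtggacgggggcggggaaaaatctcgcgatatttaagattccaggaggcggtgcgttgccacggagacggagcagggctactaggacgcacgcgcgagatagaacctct

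Per transcript length, the members covered a wide range of levels in the DMSO libraries. NPM1, which encodes the nucleolar chaperone nucleophosmin, was the most abundant (3201, 3223 and 2209 TPM in DMSO 1 to 3), followed by NCL, the nucleolin gene (1441, 1523 and 646 TPM), and FBL, the box C/D methyltransferase fibrillarin (558, 550 and 938 TPM). The lowest levels in DMSO 1 and DMSO 2 were those of DDX10 (19.5 and 18.4 TPM) and POLR1C (19.98 and 17.1 TPM), whose ranges overlapped. Subunits of one particle did not share one mRNA level. In the box H/ACA particle NHP2 had a mean of 421 TPM in DMSO 1 and DMSO 2, DKC1 223 and GAR1 48.6. In TPM, FBL and NHP2 lay above both other DMSO libraries in DMSO 3, and NCL, NPM1 and GNL3 lay below them. The direction depended on the scale. In library-scaled counts that are not divided by length (CPM, used below), DMSO 3 was the highest DMSO library for NCL and NPM1.

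**Figure D1:**
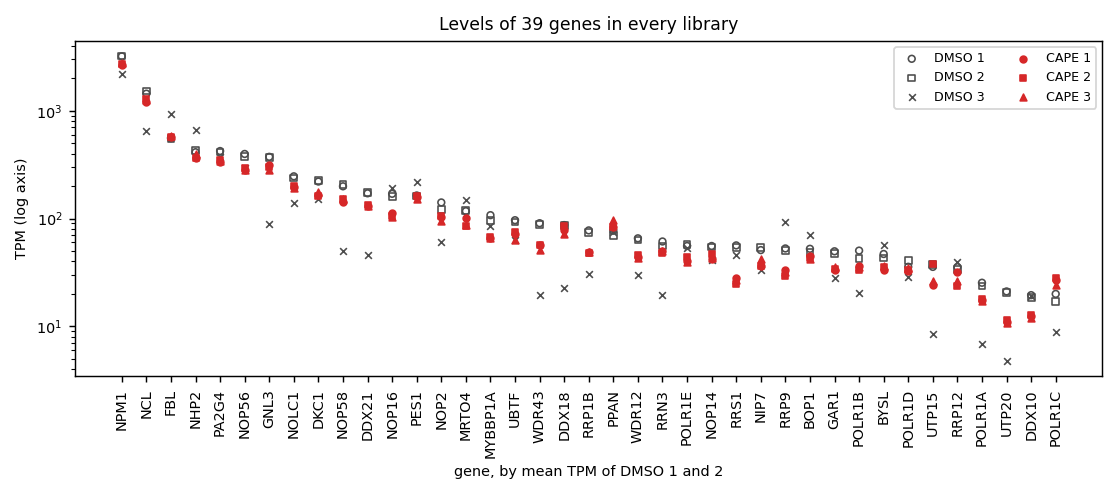
TPM (log axis) of the 39 genes in each of the 6 libraries, ordered by the mean of DMSO 1 and DMSO 2; open circles, open squares and crosses are DMSO 1, 2 and 3, and red symbols are CAPE 1 to 3. NPM1 and NCL lead and POLR1C is last, and the crosses of DMSO 3 leave the other DMSO symbols in both directions.

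CAPE-treated libraries held lower mRNA levels of nearly the whole list when DMSO 3 was left out. In that fit 35 of the 39 genes fell and 1, POLR1C, rose at an edgeR adjusted p under 0.05 over all genes, where 20.8% of all 13919 genes tested fell and 20.4% rose. These shares are the background for the counts without DMSO 3 of the role groups and further lists below. The median log2 fold change of the 39 was -0.44, against 0.00346 for all genes, 37 of the 39 lay below 0, as did 49.7% of all genes, and the members ranged from -1.05 (RRS1) to 0.40 (POLR1C). The 3 members without a call were PES1, PPAN and FBL. The groups did not overlap, with CAPE lower, for 36 of the 39 genes, where this held for 30.7% of all genes. The reads assigned to the 39 genes made up 1.04% and 1.03% of all counts in DMSO 1 and DMSO 2, 0.976% in DMSO 3 and 0.811% to 0.828% in CAPE. In such bulk samples a smaller share of cells with a transcript and less of it per cell cannot be told apart.

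With all 6 libraries 1 member, DDX10, fell and none rose, where 0.456% of the 13595 genes tested fell and 1.49% rose (1.95% in either direction). At an unadjusted p under 0.05 in this edgeR fit 19 members were lower and 1 higher, against 6.52% and 9.54% of all genes. The DESeq2 Wald test called 10 members lower and 0 higher at its adjusted threshold, against 2.07% and 3.35% of all genes. Beside DDX10 the DESeq2 calls were RRS1, POLR1B, RRP1B, WDR12, MYBBP1A, GAR1, RRP9, NCL and NOP16. The 6-library median of the 39 was -0.62, against -0.01 for all genes, and 37 of the 39 fold changes were below 0, as were 50.8% of all genes. All 3 CAPE values lay below all 3 DMSO values for 28 members, against 20.6% of all genes, and above them for 1, against 21.4%. DMSO 3 was above the mean of DMSO 1 and DMSO 2 in 28 of the 39, by a median of 0.59 over all members on the log2 scale, whereas over all genes it was above in 6816 of 13595, with a median of 0.0034. The standard error was larger with DMSO 3 than without it for each of the 39 genes.

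**Figure D2:**
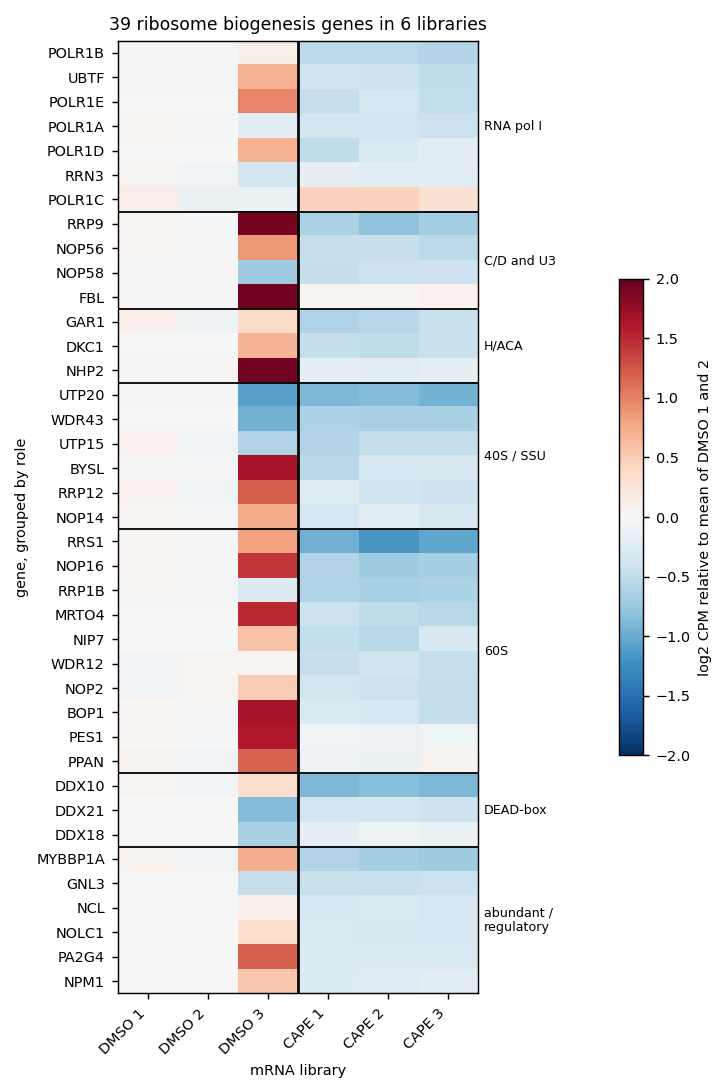
Log2 CPM (counts relative to library sizes scaled with TMM factors) of the 39 genes in the 6 libraries, each relative to the mean of DMSO 1 and DMSO 2 of that gene; colours run from -2 (blue) to 2 (red), and horizontal lines part the groups of roles. The CAPE columns are blue for nearly all genes except POLR1C, FBL, PPAN and PES1, while the DMSO 3 column holds both the strongest red and much blue.

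RNA polymerase I and its initiation factors were lower with CAPE without DMSO 3 in 6 of 7 members, and 1 was higher. POLR1B encodes the second largest subunit (2, 112542036 to 112579818, GRCh38). In CPM (counts relative to library sizes scaled with TMM factors) it measured 102, 97.5 and 107 in DMSO 1 to 3 and 69.5, 68.6 and 66.2 in CAPE 1 to 3. All CAPE values lay below all DMSO values, DMSO 3 included. The log2 fold change was -0.55 (SE 0.05, edgeR adjusted p = 9.67e-07) without DMSO 3 and -0.58 (SE 0.13, edgeR adjusted p = 0.105) with all 6. POLR1A, the largest catalytic subunit, measured 145, 136 and 122 CPM in DMSO and 109, 107 and 104 CPM in CAPE, a fall of 24.0% without DMSO 3 (log2 fold change -0.40, SE 0.05, edgeR adjusted p = 1.20e-05). POLR1A likewise did not overlap between the groups. POLR1E, the subunit known as PAF53, measured 61.6, 62.8 and 123 CPM in DMSO and 45.2, 48.6 and 44.4 CPM in CAPE (log2 fold change -0.44, SE 0.06, edgeR adjusted p = 5.12e-05 without DMSO 3). UBTF, the factor that opens ribosomal DNA and recruits the polymerase, stood at 174, 170 and 279 CPM in DMSO and 130, 127 and 121 CPM in CAPE (log2 fold change -0.45, SE 0.05, edgeR adjusted p = 2.56e-06 without DMSO 3). For both genes DMSO 3 was the highest library, and the CAPE libraries were the lowest. With all 6 libraries the log2 fold changes were -0.33 for POLR1A, -0.84 for POLR1E and -0.72 for UBTF, none of them called.

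The remaining members of the transcription group moved less or the other way. RRN3, the initiation factor TIF-IA that links the polymerase to growth signals, measured 130, 122 and 97.6 CPM in DMSO and 113, 109 and 109 CPM in CAPE. Its DMSO 3 value was the lowest of the 6, so the groups overlapped with all libraries. Its log2 fold change without DMSO 3 was -0.20 (SE 0.05, edgeR adjusted p = 0.00513), a call lost when DMSO 1 was left out as well (edgeR adjusted p = 0.0709). RRN3 has 4 named pseudogenes and overlaps PDXDC1, so its reads may be shared. POLR1C and POLR1D encode subunits that RNA polymerase I shares with RNA polymerase III and not with RNA polymerase II, and they went in opposite directions. POLR1D measured 28.6, 29.0 and 46.5 CPM in DMSO and 20.2, 23.2 and 24.7 CPM in CAPE (log2 fold change -0.34, SE 0.09, edgeR adjusted p = 0.00592 without DMSO 3). POLR1C (6, 43517089 to 43562407) measured 11.2, 9.40 and 9.37 CPM in DMSO and 14.2, 14.1 and 12.6 CPM in CAPE. Every CAPE library exceeded every DMSO library, and the log2 fold change was 0.40 (SE 0.12, edgeR adjusted p = 0.0126) without DMSO 3 and 0.45 (SE 0.16, edgeR adjusted p = 0.268) with all 6. The POLR1C call rests on 180 to 268 counts per library in the 5 libraries of that fit, the fewest of the list. It did not hold in DESeq2 (adjusted p = 0.0599) or without DMSO 2 as well (edgeR adjusted p = 0.153, log2 fold change 0.27). POLR1C overlaps XPO5 in RefSeq, which fell by 0.24 on the log2 scale in the same fit, and without a stated strand setting reads of overlapping genes may be shared. On the TPM scale POLR1D was not called lower (limma adjusted p = 0.179). With all 6 libraries the log2 fold change was -0.61 for POLR1D and -0.08 for RRN3, neither called.

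Of 14 further subunits and factors of ribosomal DNA transcription 10 fell and none rose without DMSO 3, beside 20.8% and 20.4% of all genes. The median log2 fold change of the 14 was -0.27. With all 6 libraries 1 fell (median -0.44), beside 0.456% of all genes. CD3EAP, now named POLR1G, encodes the subunit PAF49 that pairs with POLR1E. Its log2 fold change was -1.09 (SE 0.08, edgeR adjusted p = 9.60e-08), from a mean of 45.8 CPM in DMSO 1 and DMSO 2 to 21.6 CPM in CAPE. It also fell with all 6 libraries (log2 fold change -1.22, edgeR adjusted p = 0.0335). For TAF1D, of the promoter factor SL1, the log2 fold change without DMSO 3 was -0.27 (SE 0.04, edgeR adjusted p = 7.03e-05). Its 6-library log2 fold change was 0.03, and it lay 1.14 lower in DMSO 3 than in the other DMSO libraries.

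The other polymerases served as a comparison. Of 22 subunits and factors of RNA polymerase III 15 fell and none rose without DMSO 3 (median -0.24), led by GTF3C2 (-0.49) and GTF3C4 (-0.39). Of 7 subunits found in RNA polymerase II alone 2 fell, POLR2B (-0.47) and POLR2C (-0.19), and none rose (median -0.14). The share that fell was 85.7% in the RNA polymerase I group, 68.2% for RNA polymerase III and 28.6% for RNA polymerase II, beside 20.8% of all genes. The RNA polymerase I group holds listed members only. Of the 14 further genes of ribosomal DNA transcription 71.4% fell (median -0.27), near the values for RNA polymerase III. These 14 include POLR2E, POLR2F, POLR2H, POLR2K and POLR2L, which the RNA polymerase II list leaves out. With all 6 libraries no gene of the RNA polymerase I group or of the RNA polymerase II and III lists was called. Their medians were -0.58 for the RNA polymerase I group, -0.50 for RNA polymerase III and -0.63 for RNA polymerase II. The order of these lists thus did not hold. These shares are descriptions, and differences between the lists were not tested.

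Box C/D snoRNP proteins split between 3 genes that fell and FBL. NOP56, a core protein of the particle, measured 283, 269 and 502 CPM in DMSO and 200, 201 and 193 CPM in CAPE (log2 fold change -0.48, SE 0.04, edgeR adjusted p = 4.34e-07 without DMSO 3). Its partner NOP58 measured 191, 197 and 118 CPM in DMSO and 140, 144 and 145 CPM in CAPE (log2 fold change -0.44, SE 0.04, edgeR adjusted p = 1.52e-06 without DMSO 3). The pair thus fell by 28.5% and 26.4%, while DMSO 3 was the highest library for NOP56 and the lowest for NOP58. Their 6-library log2 fold changes were -0.83 and -0.24, neither called. RRP9, a protein of the U3 particle that starts precursor cleavage, measured 47.4 and 45.1 CPM in DMSO 1 and DMSO 2, 174 in DMSO 3 and 26.5 to 29.7 CPM in CAPE. Its log2 fold change was -0.71 without DMSO 3 (SE 0.07, edgeR adjusted p = 1.79e-06) and -1.65 with it (SE 0.56, edgeR adjusted p = 0.246). FBL, the methyltransferase of the same particles, measured 188, 184 and 711 CPM in DMSO and 192, 194 and 198 CPM in CAPE. Without DMSO 3 its log2 fold change was 0.06 (95% interval -0.03 to 0.15, edgeR adjusted p = 0.265), and with it -0.89 (SE 0.56, edgeR adjusted p = 0.381), so the sign of FBL turned with 1 library.

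All 3 box H/ACA members fell without DMSO 3. DKC1, the pseudouridine synthase dyskerin, which is also part of telomerase, measured 307, 302 and 488 CPM in DMSO and 219, 213 and 224 CPM in CAPE (log2 fold change -0.48, SE 0.04, edgeR adjusted p = 3.01e-07). GAR1 measured 26.1, 22.7 and 31.3 CPM in DMSO and 15.9, 16.4 and 17.8 CPM in CAPE (log2 fold change -0.55, SE 0.09, edgeR adjusted p = 3.04e-04). For both genes every CAPE library was below every DMSO library. NHP2 fell least of the 3 (log2 fold change -0.20, SE 0.05, edgeR adjusted p = 0.00453), and it had 385 CPM in DMSO 3 against 98.4 and 103 in DMSO 1 and DMSO 2. The NHP2 call did not hold on TPM (limma adjusted p = 0.081). In the 6-library fit the log2 fold changes of DKC1, GAR1 and NHP2 were -0.74, -0.68 and -1.16, none of them called.

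All 6 factors of the small subunit processome and 40S maturation fell without DMSO 3. UTP20 (12, 101280105 to 101386618), a very large scaffold protein of the processome whose promoter carries the E-box shown, had the smallest p of the 39 without DMSO 3. It measured 130, 126 and 60.1 CPM in DMSO and 68.3, 70.2 and 66.7 CPM in CAPE, a fall of 46.6% (log2 fold change -0.91, SE 0.05, edgeR adjusted p = 2.48e-09). The CAPE libraries lay together, below DMSO 1 and DMSO 2 and above DMSO 3, and with all 6 libraries the log2 fold change was -0.62 (SE 0.31, edgeR adjusted p = 0.346). WDR43, of the UtpA complex that binds the nascent precursor, measured 151, 154 and 79.1 CPM in DMSO and 98.7, 96.9 and 97.2 CPM in CAPE (log2 fold change -0.65, SE 0.05, edgeR adjusted p = 3.68e-08 without DMSO 3). WDR43 had the same pattern as UTP20, with DMSO 3 below all CAPE libraries, and its uncalled 6-library log2 fold change was -0.39. UTP15, RRP12, BYSL and NOP14 fell by 0.52, 0.36, 0.40 and 0.29 on the log2 scale without DMSO 3. Their 6-library log2 fold changes were -0.34, -0.88, -1.17 and -0.58, none of them called. On TPM the calls of RRP12 and UTP15 did not hold (limma adjusted p = 0.105 and 0.262), and UTP15 measured 38.3 TPM in CAPE 2 against 23.9 and 26.5 in CAPE 1 and CAPE 3.

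Of 41 further processome genes 36 fell and 1 rose without DMSO 3, beside 20.8% and 20.4% of all genes. The median log2 fold change of the 41 was -0.37, and -0.63 with all 6 libraries, where none passed. For NOL6 the log2 fold change was -0.93 (SE 0.06, edgeR adjusted p = 8.20e-09), and for WDR3 it was -0.67 (SE 0.05, edgeR adjusted p = 3.50e-08). IMP3, named after its value was seen, was the 1 that rose (log2 fold change 0.20, edgeR adjusted p = 0.0363), and DMSO 3 exceeded the other DMSO libraries by 1.70 on the log2 scale for it.

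Large subunit (60S) assembly factors fell in 8 of 10 cases without DMSO 3, and none rose. RRS1, which brings the 5S particle to the growing subunit, had the largest fold change of the 39 without DMSO 3, while RRP9 had it with all 6. RRS1 measured 55.8, 52.6 and 94.6 CPM in DMSO and 27.8, 24.3 and 26.5 CPM in CAPE, so that every CAPE library was below every DMSO library. RRS1 fell by 51.7% without DMSO 3 (log2 fold change -1.05, SE 0.07, edgeR adjusted p = 3.05e-08), and with all 6 its log2 fold change was -1.37 (SE 0.26, edgeR adjusted p = 0.0713). RRP1B, a nucleolar partner of a protein phosphatase, measured 265, 254 and 214 CPM in DMSO and 168, 165 and 167 CPM in CAPE (log2 fold change -0.64, SE 0.04, edgeR adjusted p = 1.61e-08 without DMSO 3, and -0.55 with it). The groups of RRP1B did not overlap either. NOP16, MRTO4, NIP7 and the RNA methyltransferase NOP2 fell by 0.66, 0.50, 0.46 and 0.43 on the log2 scale without DMSO 3. Their values in the 6-library fit were -1.29, -1.18, -0.68 and -0.61, none of them called.

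PES1, BOP1 and WDR12 form 1 complex, PeBoW, that is needed for the large subunit, and the order of their fold changes turned with DMSO 3. WDR12 measured 80.9, 87.2 and 86.4 CPM in DMSO and 61.4, 63.9 and 60.8 CPM in CAPE, a log2 fold change of -0.44 without DMSO 3 and -0.45 with it. DMSO 3 lay only 0.04 above the mean of DMSO 1 and DMSO 2 for WDR12, the smallest deviation among the 39. The log2 fold change of BOP1 was -0.37 (SE 0.07, edgeR adjusted p = 4.23e-04 without DMSO 3), a call that did not hold on TPM (limma adjusted p = 0.0699). PES1 measured 205, 196 and 608 CPM in DMSO and 191, 186 and 189 CPM in CAPE, and its log2 fold change of -0.094 did not pass (SE 0.04, edgeR adjusted p = 0.0914 without DMSO 3). PES1 did pass when the relation to transcript length was removed (log2 fold change -0.15, edgeR adjusted p = 0.00752). With DMSO 3 included the uncalled log2 fold changes were -1.15 for BOP1 and -0.83 for PES1. The differences among the 3 were not tested.

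PPAN, a factor of large subunit maturation, measured 59.0, 53.2 and 125 CPM in DMSO and 52.3, 51.2 and 59.0 CPM in CAPE. Its log2 fold change was -0.054 (95% interval -0.21 to 0.10, edgeR adjusted p = 0.582 without DMSO 3). Its sign turned on TPM, at 0.26 (limma adjusted p = 0.0726). PPAN shares its exons with the readthrough gene PPAN-P2RY11, whose log2 fold change was 1.53 (SE 0.12, edgeR adjusted p = 1.43e-07 without DMSO 3), so how reads were split between them bears on both values. Of 40 further 60S genes 35 fell and 1 rose without DMSO 3 (median -0.31), beside 20.8% and 20.4% of all genes. None of the 40 was called with all 6 libraries (median -0.47). BRIX1 (-0.54) and PUM3 (-0.66) had the smallest p without DMSO 3. RSL24D1, named after its value was seen, rose by 0.37 in that fit (edgeR adjusted p = 5.66e-05).

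The nucleolar DEAD-box helicases, which remodel RNA in precursor particles, all fell without DMSO 3, by very different amounts. DDX10 (11, 108665069 to 108940927) was the 1 member called with all 6 libraries. It measured 39, 35.8 and 47.0 CPM in DMSO and 19.97, 20.8 and 20.1 CPM in CAPE. The highest CAPE value lay well under the lowest DMSO value, DMSO 3 included. The log2 fold change was -1.0 (SE 0.16, edgeR adjusted p = 0.0410) with all 6 and -0.89 (SE 0.07, edgeR adjusted p = 2.91e-07) without DMSO 3. The 6-library call was lost when any other single library was left out, at edgeR adjusted p from 0.112 to 0.295. It was lost as well without TMM scaling (edgeR adjusted p = 0.0834), where RRS1 passed in its place (edgeR adjusted p = 0.0311). DDX21, a helicase that senses polymerase I activity, has the other E-box before the downstream of its RefSeq starts only. DDX21 measured 540, 547 and 299 CPM in DMSO and 415, 419 and 407 CPM in CAPE (log2 fold change -0.40, SE 0.04, edgeR adjusted p = 8.08e-07 without DMSO 3). DDX18 fell least of the 3 (log2 fold change -0.14, SE 0.04, edgeR adjusted p = 0.0164). The DDX18 call was lost without DMSO 1, DMSO 2 or CAPE 1 as well, at edgeR adjusted p = 0.0551, 0.0666 and 0.0511. Both DDX21 and DDX18 were lower in DMSO 3 than in any CAPE library, and with all 6 their uncalled log2 fold changes were -0.16 and 0.05.

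The abundant and regulatory nucleolar proteins all fell without DMSO 3, in 6 of 6 cases. MYBBP1A, a repressor of polymerase I and other transcription, measured 218, 196 and 344 CPM in DMSO and 136, 131 and 126 CPM in CAPE (log2 fold change -0.66, SE 0.05, edgeR adjusted p = 1.29e-07). GNL3, the GTP-binding protein nucleostemin of proliferating cells, measured 285, 283 and 207 CPM in DMSO and 209, 209 and 210 CPM in CAPE (log2 fold change -0.44, SE 0.04, edgeR adjusted p = 4.67e-07). MYBBP1A separated the groups in all libraries, whereas the GNL3 value of DMSO 3 fell just under those of CAPE. NCL measured 1638, 1664 and 1779 CPM in DMSO and 1309, 1331 and 1307 CPM in CAPE, a fall of 20.5% (log2 fold change -0.33, SE 0.05, edgeR adjusted p = 4.12e-05). NPM1 measured 2365, 2362 and 3422 CPM in DMSO and 1964, 1978 and 2036 CPM in CAPE, a fall of 15.9% (log2 fold change -0.25, SE 0.05, edgeR adjusted p = 7.64e-04). NPM1 has 50 named pseudogenes, with which it may share reads. NOLC1, a chaperone of snoRNPs, and PA2G4, a growth-regulated RNA-binding protein, fell by 0.32 and 0.30 on the log2 scale. With all 6 libraries the log2 fold changes of MYBBP1A, GNL3, NCL and NPM1 were -0.95, -0.30, -0.36 and -0.45, none of them called. Among all members, reads may also be shared where RefSeq has another coding gene overlapping, as for NOP16, BOP1, NHP2, GNL3, MYBBP1A, POLR1D and BYSL. Without DMSO 3 the log2 fold changes of ARL10 (1.40) and SCX (1.67) were opposite to those of NOP16 and BOP1, which they overlap. LNX2 (-0.53) and MED20 (-0.29) fell, as did POLR1D and BYSL, which they overlap. RMND5B, GLT8D1 and SPNS2, which overlap NHP2, GNL3 and MYBBP1A, were not called.

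**Figure D3:**
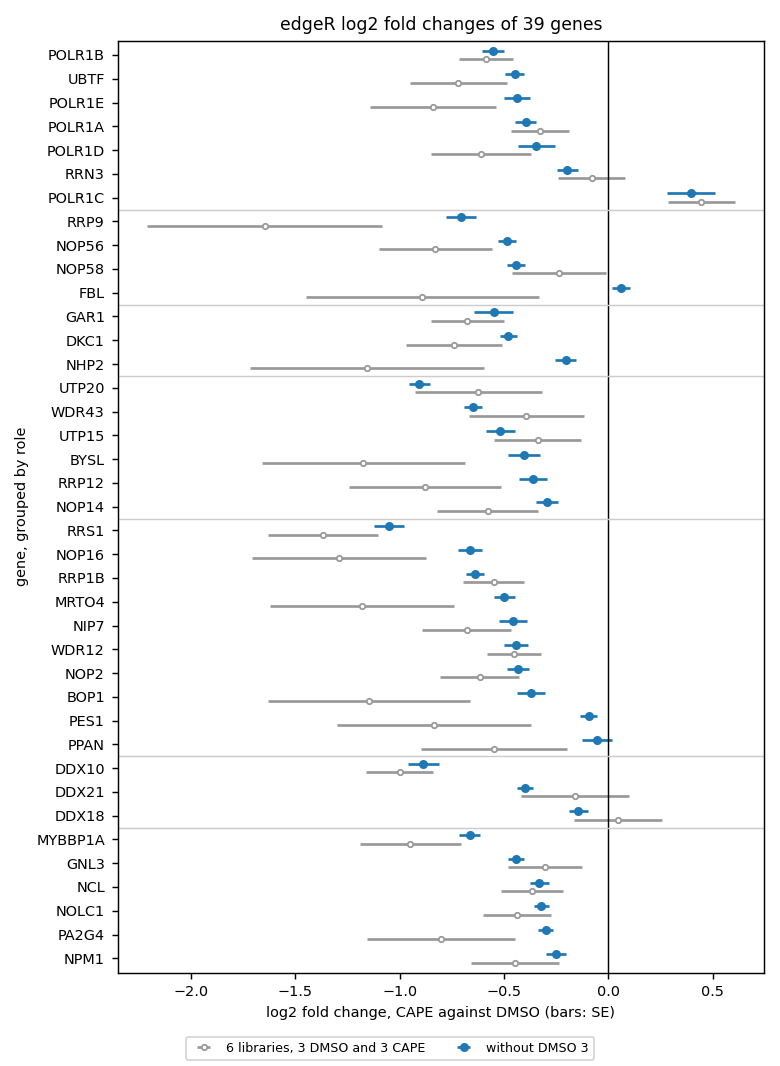
edgeR log2 fold changes of CAPE against DMSO with SE bars, genes grouped by role; open grey circles are the fit with 3 DMSO and 3 CAPE libraries and blue circles the fit without DMSO 3. All blue circles lie left of 0 except POLR1C (0.40) and FBL (0.06), and the grey bars are longer.

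How far DMSO 3 lay from the other DMSO libraries varied with the length of the transcript. Relative length was taken as counts per TPM. Across the 39 members Spearman's rho between this length and the deviation of DMSO 3 was -0.49, and across all 13595 genes -0.45, a description over genes of the same libraries. NHP2 and FBL, with relative lengths of -2.30 and -1.81 on the log2 scale, lay 1.94 and 1.93 above the mean of DMSO 1 and DMSO 2, and UTP20, with a relative length of 2.36, lay 1.09 below it. The fold changes without DMSO 3 had a rho of -0.20 with length over the members and 0.02 over all genes. When a length trend was fitted and removed in each library, 3 members were called lower with all 6 libraries, where 0.978% of all genes were, namely DDX10 again and with it RRS1 and UTP20 (edgeR adjusted p = 0.0245 and 0.0154).

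**Figure D4:**
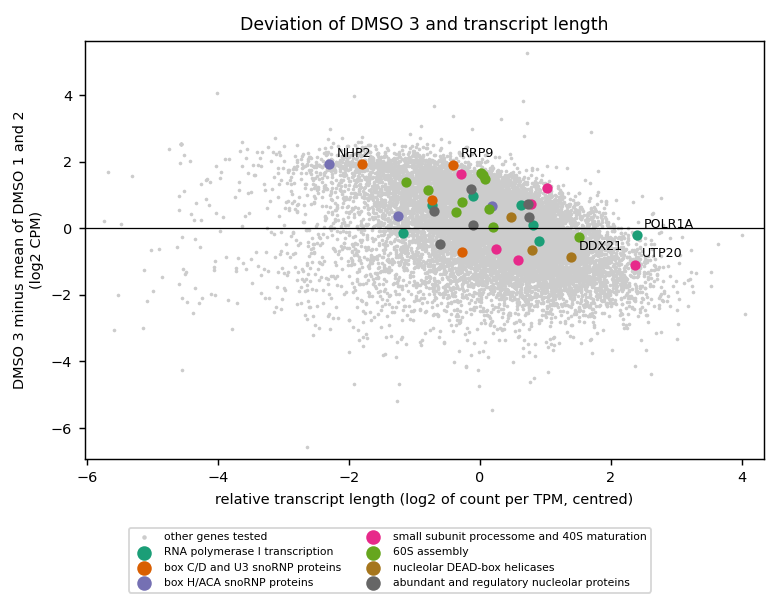
Deviation of DMSO 3 from the mean of DMSO 1 and DMSO 2 (log2 CPM) against relative transcript length (log2 of count per TPM, centred) for all genes tested with 6 libraries (grey) and the 39 members, coloured by role. Both clouds slope downward to the right, with NHP2 at the upper left and UTP20 at the lower right.

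Some members carry snoRNA genes within their own span, and introns of such host genes are known as a source of snoRNAs. RefSeq places at least 1 snoRNA gene within 8 of the 39 members (20.5%), against 3.38% of coding genes tested. They are NCL, NOP56, NOP58, DKC1, WDR43, GNL3, PPAN and UTP20, the last only through the RefSeq entry LOC124903119. Only position within the span was used, and neither strand nor intron was checked. Of these 8 members 7 fell without DMSO 3, with a median log2 fold change of -0.46, and of the 31 other members 28 fell, with a median of -0.40. Of 412 other coding genes tested with a snoRNA gene in their span 127 fell (30.8%, median -0.06), where 21.9% of matched coding genes did. The snoRNAs themselves were not analysed here.

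Mitochondrial ribosomal proteins, made for the separate ribosome of that organelle, fell in 32 of 49 cases and rose in 1 without DMSO 3 (median log2 fold change -0.22). Of all genes in that fit 20.8% fell and 20.4% rose (median 0.00346). With all 6 libraries none of the 49 was called, and the median was -0.73. MRPL15 (-0.55) and MRPS27 (-0.36) had the smallest p, and MRPL17, named after its value was seen, rose by 0.27 (edgeR adjusted p = 0.00143). The median deviation of DMSO 3 was 1.12 for this list and 0.59 for the 39 members. The median log2 fold change without DMSO 3 was thus -0.44 for the 39 members, -0.37 and -0.31 for the further small subunit and 60S genes and -0.22 for the mitochondrial list, with no test between lists. This order did not hold with all 6 libraries, where the medians were -0.62, -0.63, -0.47 and -0.73.

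**Figure D5:**
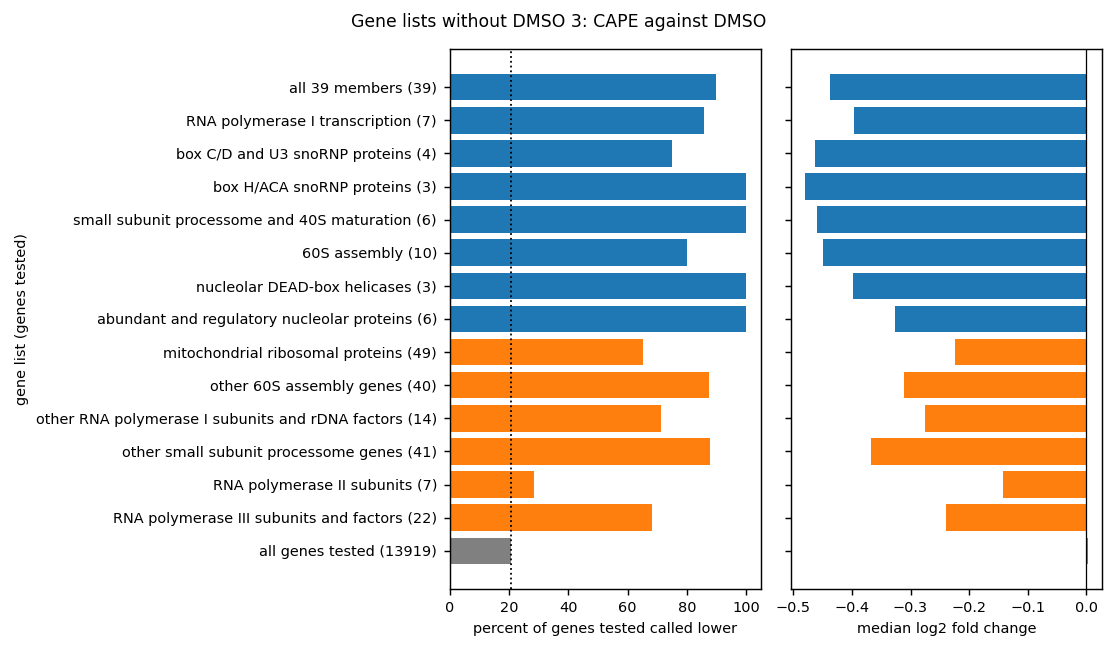
Left, percent of the genes tested in each list that were called lower without DMSO 3, with a dotted line at the 20.8% of all genes; right, the median log2 fold change of the same lists (blue, the 39 members and their roles; orange, further lists; grey, all genes). The 39 members reach 89.7% and a median of -0.44, and RNA polymerase II subunits lie at 28.6% and -0.14; these values are without DMSO 3.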

How the data were processed

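Per the submitters' processing notes, reads were handled with bcl2fastq and kallisto 0.46.1 against GRCh38. The authors deposited estimated counts per gene symbol, which are whole numbers in the file, and TPM values, which divide by transcript length. The annotation release, the summing of transcripts to genes and any strand setting are named by no label or header. The miRNA table was not used, and 1 marker of the tumour type is not reported here.

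Counts were filtered with filterByExpr, scaled with TMM factors and tested with edgeR 4.0.16 (R 4.3.3, quasi-likelihood F test, group as the only term), with Benjamini-Hochberg adjustment over all genes and a threshold of 0.05. One fit used 6 libraries and one left out DMSO 3. The SE is the log2 fold change divided by the square root of F, and CPM are relative to TMM-scaled library sizes. Alternatives were RLE factors, total counts, no filter, DESeq2 1.42.0, limma 3.58.1 on log2(TPM + 1) and log2(TPM + 0.1), length offsets, a replicate block and leaving out each library. The edgeR script was tested on simulated data. The members, lists, roles and naming rule were chosen with earlier results of these data known. The rule gave values per library for the 2 members per role with the smallest p without DMSO 3, for all polymerase I members, for members above 0 and for the 3 most abundant, and it took the 2 genes with the smallest p from each further list. The list of snoRNA host genes that are not coding was not analysed here. Positions and sequences come from RefSeq tables of GRCh38.p14.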

Additional observations from a re-analysis of the deposited data

How the results depend on the processing

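Without DMSO 3, 35 members were lower under RLE factors, total counts, DESeq2, no filter and the replicate block, 36 with length offsets and 29 with either TPM fit, and 33 to 35 when 1 more library was left out. The count of higher members was 1 except for 0 in DESeq2 and a range of 0 to 1 over single libraries. In the main fit without DMSO 3, 20.8% of all genes were lower and 20.4% higher. For the other settings these shares are not given here, so their counts describe the list only. The median of the 39 was -0.37 on log2(TPM + 1), -0.38 on log2(TPM + 0.1) and -0.50 with length offsets. With a further DMSO library left out, 1 DMSO library remained, assumed to vary like the others.

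With 6 libraries the count of lower members was 1 under RLE factors and total counts. It was 10 in DESeq2 (2.07% of all genes) and 3 with length offsets (0.978% of all genes). It was 0 with no filter, with either TPM fit and with the replicate block. Over single left-out libraries it ran from 0 to 35 and the higher count from 0 to 1, with 35 and 1 without DMSO 3 (20.8% and 20.4% of all genes). Shares of all genes under RLE factors, total counts, no filter, the TPM fits and other left-out libraries are not given here. The 6-library median was -0.20 in both TPM fits, where the median of all genes was 0.31 and 0.40, and -0.43 on total counts, where that of all genes was 0.17.

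The replicate block took the calls over all genes from 265 to 0 with 6 libraries, and without DMSO 3 it changed no member's call. Same-numbered libraries correlated at -0.19, 0.14 and -0.01 in their deviations from the group means, and not every library correlated best with its own number. DMSO 1 and DMSO 2 correlated alike with CAPE 1 (-0.19 and -0.18) and with CAPE 2 (0.21 and 0.14). DMSO 3 had the opposite signs (0.20 and -0.19). These deviations follow DMSO 3 and so cannot decide whether the numbers are pairs. The main fits did not treat them as pairs.

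Signs of uncalled 6-library values turned as follows. On log2(TPM + 1) they were 0.16 for NCL, 0.21 for NOP58, 0.012 for WDR43, 0.38 for GNL3, 0.26 for PPAN, 0.23 for DDX21, 0.11 for POLR1A, 0.27 for RRN3 and 0.34 for UTP15. On log2(TPM + 0.1) the same genes stood at 0.16, 0.21, 0.020, 0.38, 0.26, 0.24, 0.13, 0.28 and 0.36. The medians of all genes on both TPM scales and on total counts, given above, were positive as well. On log2(TPM + 1) only GNL3 and UTP15 of these genes lay above that median, and on log2(TPM + 0.1) none did. RRN3 was 0.078 on total counts and 0.0010 without DMSO 1, and DDX18 was -0.12 with length offsets. Over single left-out libraries FBL ran from -1.22 to 0.061 and DDX18 from -0.14 to 0.15, both turning without DMSO 3. In the fit without DMSO 3, PPAN was 0.26 in both TPM fits and -0.13 to 0.018 over further left-out libraries, turning without DMSO 1, and FBL was -0.026 with length offsets. The causes were not tested. The few counts of POLR1C limit its precision, and intervals cover the spread of these libraries only.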
